A study of Homo sapiens with 4 samples.

Results

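A set of 8 neural-enriched microRNAs (miRNAs) was followed in 2 colorectal cancer cell lines whose spheres grew in a medium of the kind used for neural cells. The members were hsa-miR-128, hsa-miR-9-5p, hsa-miR-9-3p, hsa-miR-132-3p, hsa-miR-212-3p, hsa-miR-7-5p, hsa-miR-124-3p and hsa-miR-218-5p (hsa, human, is left out of names from here on), taken by name from 2080 mature miRNA names in the deposited files, and all 8 names were listed in all 4 libraries. HT29 and HCT15 are established human colorectal adenocarcinoma lines. HT29 spheres and HCT15 spheres were grown in DMEM-F12 with an N2 supplement, 10 ng/ml bFGF and 10 ng/ml EGF, and the submitters regard them as sphere-derived cancer stem cells. The HT29 parental cells grew in DMEM and the HCT15 parental cells in RPMI, each with 10% FBS. All cultures received penicillin and streptomycin. Medium, serum and growth as spheres changed together, so their parts in any difference cannot be told apart. Small RNA was sequenced from 1 library per line and culture, so no value has a replicate.

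Neural miRNAs are short RNAs that repress messenger RNAs and are enriched in brain. miR-124 marks differentiated neurons, and miR-9 marks neural progenitors, where both arms of its hairpin are used. miR-132 and miR-212 are made from neighbouring hairpins of a locus that CREB induces in active neurons. miR-128 is a brain-enriched miRNA that represses the Polycomb gene BMI1 in glioma cells, miR-218 is a miRNA of motor neurons, and miR-7 is abundant in neuroendocrine and pancreatic islet cells and is bound by the circular RNA CDR1as. An N2 supplement with bFGF and EGF is a standard medium for growing neural stem cells as neurospheres, which is why neural miRNAs were examined here.

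The mature sequences below show what the reads of each member can be told apart by, 5′ to 3′, with the seed (bases 2 to 8, the part that pairs with targets) in capitals. They are RefSeq sequences on GRCh38.p14.
hsa-miR-128: uCACAGUGaaccggucucuuu
hsa-miR-9-5p: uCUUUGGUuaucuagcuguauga
hsa-miR-9-3p: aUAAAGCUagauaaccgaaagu
hsa-miR-132-3p: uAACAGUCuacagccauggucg
hsa-miR-212-3p: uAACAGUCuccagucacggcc
hsa-miR-7-5p: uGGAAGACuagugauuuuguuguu
hsa-miR-218-5p: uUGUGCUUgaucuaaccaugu
miR-132-3p and miR-212-3p share a seed, and no other pair among these sequences does. Over the 21 bases that both have, miR-132-3p and miR-212-3p are identical at 17, and the differences, counted from base 1 at the 5′ end with the miR-132-3p base first, are A10C, C14U, U17C and U20C. miR-124-3p is named only.

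The arms opposite miR-7-5p are shown because they differ by hairpin, whereas miR-7-5p is the same from each of its hairpins.
miR-7-1-3p: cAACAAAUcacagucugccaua
miR-7-2-3p: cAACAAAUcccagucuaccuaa
These differ at A10C, G17A, A20U and U21A, with the miR-7-1-3p base first.

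The hairpins of the locus on chromosome 17 are shown with both mature arms in capitals, since both arms of both hairpins had reads in every library.
MIR132: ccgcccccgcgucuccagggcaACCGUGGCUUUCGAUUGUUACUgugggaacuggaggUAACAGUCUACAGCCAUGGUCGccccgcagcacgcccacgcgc
MIR212: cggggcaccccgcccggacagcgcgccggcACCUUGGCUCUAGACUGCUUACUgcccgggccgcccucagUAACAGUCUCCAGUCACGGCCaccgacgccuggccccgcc
MIR132 (chromosome 17, 2049908 to 2050008, minus strand) and MIR212 (chromosome 17, 2050271 to 2050380, minus strand) are 262 bases apart, and GENCODE 29 on GRCh38 annotates no host gene on their strand. MIR128-1 (chromosome 2, 135665397 to 135665478, plus strand) is intronic to R3HDM1, and MIR128-2 (chromosome 3, 35744476 to 35744559, plus strand) to ARPP21. MIR7-1 (chromosome 9, 83969748 to 83969857, minus strand) overlaps an annotated exon of HNRNPK, a gene for an RNA-binding protein found in nearly all cells. MIR7-3 (chromosome 19, 4770670 to 4770779, plus strand) is intronic to the noncoding MIR7-3HG. The hairpin of miR-7-2-3p is on chromosome 15 and was not placed here. MIR9-1 (chromosome 1, 156420341 to 156420429, minus strand) is intronic to C1orf61, MIR9-2 (chromosome 5, 88666853 to 88666939, minus strand) overlaps an exon of the noncoding LINC00461, and MIR9-3 (chromosome 15, 89368017 to 89368106, plus strand) is intronic to MIR9-3HG. MIR218-1 (chromosome 4, 20528275 to 20528384, plus strand) and MIR218-2 (chromosome 5, 168768146 to 168768255, minus strand) are intronic to SLIT2 and SLIT3, genes of axon guidance.

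Listed miRNA reads came to 12794274 in HT29 spheres and 5806540 in HT29 parental cells. HCT15 was deposited as RPKM, from which 2317669 and 3184757 reads were recovered in spheres and parental cells. Levels are given in CPM, in which all listed miRNA reads of a library are scaled to the same total, with no division by length since a read spans a mature miRNA. Where a name was at 0, the upper limit was taken as 3 reads, which is 0.234, 0.517, 1.29 and 0.942 CPM in HT29 spheres, HT29 parental cells, HCT15 spheres and HCT15 parental cells. Intervals are 95% intervals, cover counting error only and rest on reads without molecular identifiers. All 6 intestinal epithelial miRNAs examined (miR-192-5p, miR-194-5p, miR-215, miR-375, miR-200c-3p and miR-141-3p) had reads in every library, at 77.7 CPM or more. miR-194-5p was at 77.7 and 81.6 CPM in HCT15 spheres and parental cells, below miR-128 there (312 and 611 CPM). In HT29 spheres and parental cells miR-194-5p was at 15240.5 and 20136 CPM. In both cultures miR-375 was higher in HCT15 and the rest of this list higher in HT29. Together the 6 took 21.4%, 14.2%, 1.48% and 1.72% of reads in HT29 spheres, HT29 parental cells, HCT15 spheres and HCT15 parental cells. The 8 neural members took 0.131%, 0.470%, 0.0407% and 0.0728% in the same order.

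Neural miRNAs were present at very uneven levels, and miR-124-3p, miR-218-5p and miR-9-3p were at or near 0. miR-124-3p had 1 read in HT29 parental cells and was listed at 0 in HT29 spheres and both HCT15 libraries. miR-218-5p had 3 reads in HT29 spheres and was listed at 0 in HT29 parental cells and both HCT15 libraries. miR-9-3p had 5 and 2 reads in HT29 spheres and parental cells, against 0 and 1 in those of HCT15. All 3 were thus close to the counting floor in spheres and in parental cells, and no sphere to parental ratio was read from them. The opposite arms miR-124-5p, miR-218-1-3p and miR-218-2-3p were listed at 0 in all 4 libraries.

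**Figure D1:**
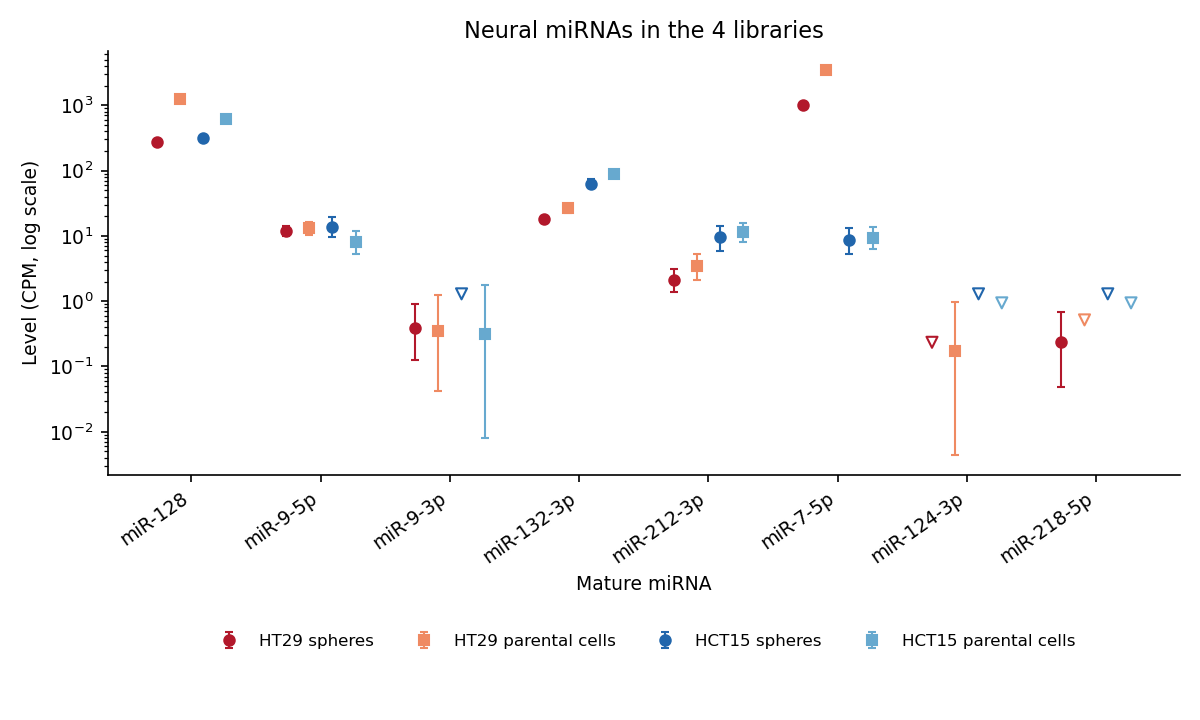
Level of each of the 8 neural miRNAs (CPM, log axis) in the 4 libraries, with 1 library per line and culture. Bars are 95% Poisson intervals and open triangles mark the 3-read floor of a library that listed 0. miR-128 is at 272.7 CPM or more in every library, miR-7-5p is high in HT29 alone, and miR-9-3p, miR-124-3p and miR-218-5p are at or near 0.

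The order of the members was set by miR-7-5p and miR-128 in HT29 and by miR-128 and miR-132-3p in HCT15. miR-7-5p and miR-128 together made up 97.5% and 99.1% of the members' reads in HT29 spheres and parental cells. In both HT29 libraries miR-7-5p was highest, followed by miR-128, miR-132-3p, miR-9-5p and miR-212-3p, with intervals that did not overlap between neighbours. In HCT15, miR-128 was highest and miR-132-3p second in both libraries, whereas miR-9-5p, miR-212-3p and miR-7-5p had overlapping intervals in each and could not be ordered at this depth.

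miR-128 was lower in the spheres of both lines. It had 3489 reads (272.7 CPM) in HT29 spheres and 7201 reads (1240.2 CPM) in HT29 parental cells. In HCT15 it had 724 reads (312 CPM) in spheres and 1945 reads (611 CPM) in parental cells. Both sphere libraries thus lay below both parental libraries. The log2 ratio of spheres to parental cells, after TMM scaling (edgeR's correction for a few abundant miRNAs) and with a prior count of 2, was -1.63 in HT29 (interval -1.69 to -1.57) and -0.62 in HCT15 (interval -0.74 to -0.49). Because TMM corrects for composition, log2 ratios of plain CPM differ from the TMM-scaled ones by -0.55 in HT29 and -0.35 in HCT15. The miR-128 ratio stayed below 0 under all 5 scalings tried, at -2.18 to -1.38 in HT29 and -0.97 to -0.38 in HCT15. In HCT15, TMM factors of the line alone gave the same ratio as the main scaling, so they were no separate check there. In bulk RNA, fewer cells that make a miRNA and less of it per cell cannot be told apart.

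miR-7-5p was lower in HT29 spheres and scarce in HCT15. It had 12872 reads (1006 CPM) in HT29 spheres and 19832 reads (3415 CPM) in HT29 parental cells. This gave a log2 ratio of -1.21 (interval -1.24 to -1.18), with a range of -1.76 to -0.96 over the 5 scalings. In HCT15 it had 20 reads (8.63 CPM) in spheres and 30 reads (9.42 CPM) in parental cells, a log2 ratio of 0.21 with an interval of -0.67 to 1.09, so a difference was not detectable at this depth. miR-7-1-3p, the opposite arm of the MIR7-1 hairpin, was also lower in HT29 spheres, at 414 reads (32.4 CPM) against 954 reads (164 CPM) in HT29 parental cells, with a log2 ratio of -1.79 (interval -1.96 to -1.62). In HCT15, miR-7-1-3p had 87 reads in spheres and 158 in parental cells, a log2 ratio of -0.05 (interval -0.45 to 0.33). miR-7-2-3p was listed at 0 in all 4 libraries.

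miR-9-5p was near 10 CPM in each library and was relatively higher in HCT15 spheres. It had 32 reads (13.8 CPM) in HCT15 spheres and 26 reads (8.16 CPM) in HCT15 parental cells, with a log2 ratio of 1.04 (interval 0.31 to 1.91). In HT29 it had 152 reads (11.9 CPM) in spheres and 76 reads (13.1 CPM) in parental cells, with a log2 ratio of 0.41 (interval 0.01 to 0.83). The HT29 direction rested on the scaling, since scaling by total reads alone gave -0.14. In HCT15 the ratio ranged from 0.71 to 1.26 over the scalings. miR-9-5p outnumbered miR-9-3p by 30.4 to 1 in HT29 spheres (interval 12.7 to 95.0) and 38.0 to 1 in HT29 parental cells (interval 10.2 to 319).

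miR-132-3p and miR-212-3p, the CREB-linked pair with 1 seed, had ratios whose intervals held 0 in both lines. miR-132-3p had 230 reads (18.0 CPM) in HT29 spheres and 154 reads (26.5 CPM) in HT29 parental cells, with a log2 ratio of -0.01 (interval -0.31 to 0.30). In HCT15 it had 146 reads (63.0 CPM) in spheres and 278 reads (87.3 CPM) in parental cells, with a log2 ratio of -0.12 (interval -0.42 to 0.17). The sign changed with the scaling in both lines. miR-212-3p had 27 and 20 reads in HT29 spheres and parental cells (log2 ratio -0.14, interval -1.04 to 0.76) and 22 and 37 reads in those of HCT15 (0.05, interval -0.77 to 0.86). The pair kept a similar balance: miR-132-3p outnumbered miR-212-3p 8.52-fold in HT29 spheres, 7.70-fold in HT29 parental cells, 6.64-fold in HCT15 spheres and 7.51-fold in HCT15 parental cells, with intervals that all overlapped. The 5p arms were scarcer, with 15 and 10 reads of miR-132-5p and 7 and 5 of miR-212-5p in HT29 spheres and parental cells. In HCT15 spheres and parental cells these were 11 and 33 reads of miR-132-5p and 12 and 16 of miR-212-5p.

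**Figure D2:**
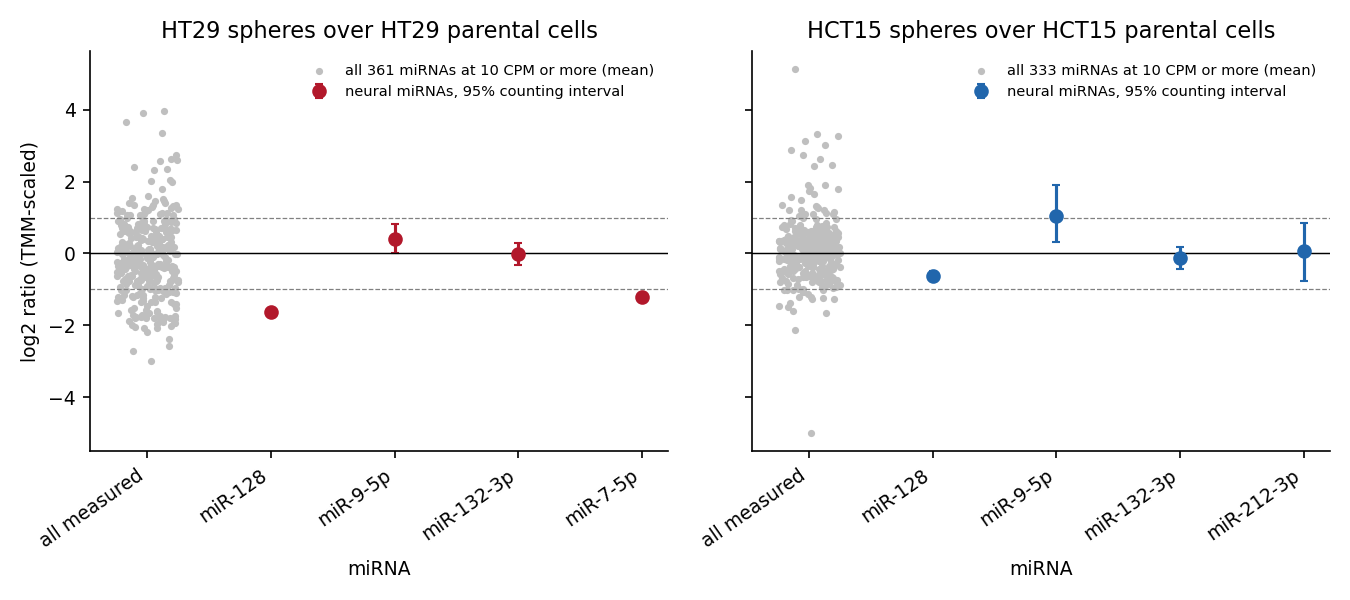
log2 ratio of spheres to parental cells (y axis, TMM-scaled) in HT29 (left) and HCT15 (right). Grey points are all miRNAs whose mean in the line reached 10 CPM (361 in HT29, 333 in HCT15), and coloured points with 95% counting intervals are the 4 neural miRNAs of each line that reached this mean. miR-128 lies at -1.63 in HT29 and -0.62 in HCT15, within the spread of the grey points.

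Set against all miRNAs, these ratios were not extreme. Of the 8 members, 4 reached a mean of 10 CPM in HT29 (miR-128, miR-9-5p, miR-132-3p and miR-7-5p). Among these 4, 2 were at least 2-fold lower in spheres (miR-128 and miR-7-5p), where 19.4% of the 361 miRNAs at that mean were. With upper quartile factors miR-7-5p, at -0.96, was no longer 2-fold lower. None of the 4 was at least 2-fold higher, where 12.5% of the 361 were. In HT29, 9.42% of measured miRNAs had a lower ratio than miR-128 and 14.7% a lower one than miR-7-5p. In HCT15, 4 members reached the mean (miR-128, miR-9-5p, miR-132-3p and miR-212-3p). Of these, miR-9-5p was at least 2-fold higher, where 9.31% of 333 miRNAs were, and none was at least 2-fold lower, where 6.01% were. With total reads miR-9-5p, at 0.71, was no longer 2-fold higher. In HCT15, 17.4% of measured miRNAs had a lower ratio than miR-128. The median ratio of the 4 members was -0.61 in HT29 and -0.03 in HCT15, beside -0.09 and 0.05 over all measured miRNAs.

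Across both lines no member passed the test. limma was fitted to TMM-scaled CPM on a log2 scale (pseudocount 1), blocking on cell line, over the 377 miRNAs that reached 10 CPM in 2 or more libraries. After Benjamini-Hochberg adjustment limma called 0 of 377 (0%) at a threshold of 0.05, while 21 passed that threshold unadjusted. edgeR's quasi-likelihood test on reads called 0, with 17 at an unadjusted p under 0.05, DESeq2 on reads called 5 and limma-voom 3, none of them a member. Of the 8 members, 4 entered the test. miR-128 had a log2 fold change of -1.12 (SE 0.49, limma adjusted p = 0.737), lower in 2 of 2 lines. miR-9-5p had 0.70 (SE 0.38, limma adjusted p = 0.737), higher in 2 of 2 lines with this scaling. miR-132-3p had -0.06 (SE 0.38, limma adjusted p = 0.985) and miR-7-5p -0.50 (SE 0.56, limma adjusted p = 0.793). The lines are the only replicates, and nothing states that a culture was repeated. Each limma SE joined the spread of that miRNA between the 2 lines with a spread estimated from the tested miRNAs. The latter weighed more, since the prior was worth 2.74 degrees of freedom at the median against 1 residual. For miR-132-3p the ratios of the lines were close (-0.01 in HT29 and -0.12 in HCT15), yet the SE was 0.38. These p-values thus do not measure the spread between the lines alone.

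Among the members measured, the lines differed most in miR-7-5p. The HT29 values are deposited counts and the HCT15 values reads recovered from RPKM, with 1 library per line and culture, so the line differences, on TMM factors of all 4 libraries, are described and not tested. miR-7-5p was at 1006 CPM in HT29 spheres against 8.63 CPM in HCT15 spheres, a log2 difference of 6.78 (interval 6.19 to 7.53). In parental cells it was at 3415 CPM in HT29 against 9.42 CPM in HCT15, a log2 difference of 8.20 (interval 7.74 to 8.82). By excess in HT29 it ranked 17th of 342 miRNAs in spheres and 6th of 389 in parental cells. The opposite arm miR-7-1-3p had far smaller differences, of -0.26 in spheres (interval -0.59 to 0.09) and 1.47 in parental cells (interval 1.24 to 1.73), at 32.4 CPM in HT29 spheres against 37.5 CPM in HCT15 spheres and 164 CPM in HT29 parental cells against 49.6 CPM in HCT15 parental cells.

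The arm with more reads thus differed between the lines. miR-7-5p had 31.1 and 20.8 reads per read of miR-7-1-3p in HT29 spheres and parental cells, against 0.230 (interval 0.134 to 0.377) and 0.190 (interval 0.124 to 0.282) in those of HCT15. The files of the lines differed in the balance of arms for many hairpins. With 0.5 reads added to each arm, log2(5p/3p) was taken for 135 hairpins with at least 100 reads of both arms together in each line. The median size of its HT29 to HCT15 difference was 1.97 in spheres and 2.17 in parental cells. Where 1 arm was at or near 0, the ratio rested on the added reads and on depth. The arm with more reads was not the same in the 2 lines for 11 hairpins in spheres and 20 in parental cells. For MIR7-1 the balance was miR-7-5p over miR-7-1-3p, and miR-7-5p reads can also come from other MIR7 hairpins. This balance had differences of 7.05 and 6.75, which ranked 6th and 8th in size in spheres and parental cells. MIR132 ranked 127th and 112th. How the authors counted reads that end off the annotated mature form, or that match several hairpins, is not given in the sources used here, and its part in the miR-7-5p gap was not tested. The interval of the miR-7-5p difference covers counting error alone.

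**Figure D3:**
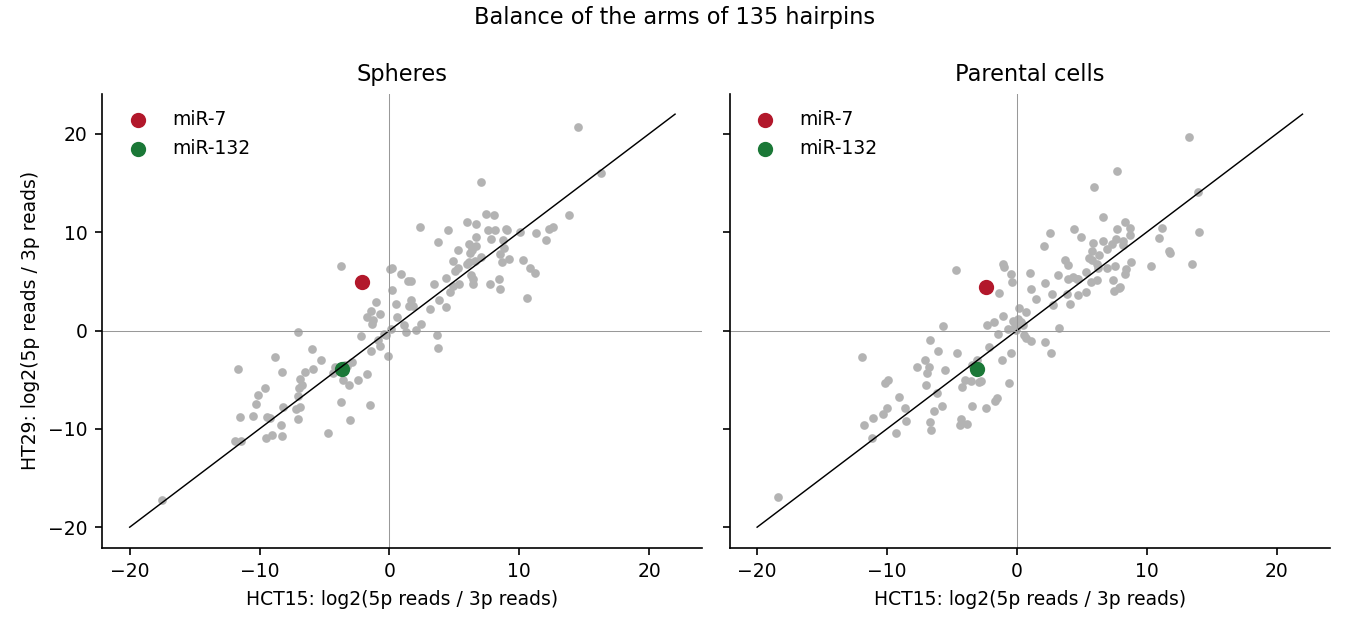
Balance of the arms, as log2 of 5p reads over 3p reads with 0.5 reads added to each, in HT29 (y axis) and HCT15 (x axis). Spheres are on the left and parental cells on the right. Each point is 1 of 135 hairpins and the diagonal marks equal balance. The miR-7 point (miR-7-5p over miR-7-1-3p) sits above 0 in HT29 and below 0 in HCT15 in both panels, whereas miR-132 lies near the diagonal.

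The other members differed less between the lines. miR-132-3p was lower in HT29, with a log2 difference of -1.84 (interval -2.16 to -1.54) in spheres and -1.95 (interval -2.26 to -1.68) in parental cells. miR-212-3p was likewise lower in HT29, at 2.11 CPM in HT29 spheres against 9.49 CPM in HCT15 spheres and 3.44 CPM in HT29 parental cells against 11.6 CPM in HCT15 parental cells. miR-128 had a log2 difference of -0.24 (interval -0.36 to -0.12) in spheres and 0.77 (interval 0.70 to 0.85) in parental cells. miR-9-5p had -0.26 and 0.42, with intervals that held 0. Differences of at least 2-fold between the lines were common: in spheres 42.1% of 342 miRNAs were that much higher in HT29 and 35.4% that much lower, and in parental cells 43.7% and 31.4% of 389. Among the 4 members measured, miR-7-5p was at least 2-fold higher and miR-132-3p at least 2-fold lower in HT29 in both cultures.

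A wider list of 25 other neural-enriched miRNAs had ratios in both directions. Of the 25, 8 were listed at 0 in all 4 libraries, among them miR-137, a miRNA of neuronal maturation, and 11 reached 10 CPM in at least 1 library. In HT29, 8 of the 25 reached a mean of 10 CPM, of which 1 was at least 2-fold higher in spheres and 2 at least 2-fold lower, beside 12.5% and 19.4% of all measured miRNAs. Their median log2 ratio was 0.34, beside -0.09 over all. In HCT15, 5 reached it and none was 2-fold higher or lower, beside 9.31% and 6.01% of all measured miRNAs. Their median was 0.61, beside 0.05 over all. No miRNA of this list passed limma across the lines (8 tested).

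miR-184 was the 1 higher in HT29 spheres, at 288 reads (22.5 CPM) against 72 reads (12.4 CPM) in HT29 parental cells, with a log2 ratio of 1.39 (interval 1.04 to 1.81). With total reads the miR-184 ratio was 0.85, no longer 2-fold higher. It had 2 and 1 reads in HCT15 spheres and parental cells. The lower pair was miR-219-5p, a miRNA of oligodendrocytes, and miR-326. miR-219-5p had 65 reads (5.08 CPM) in HT29 spheres and 149 reads (25.7 CPM) in HT29 parental cells, with a log2 ratio of -1.75 (interval -2.23 to -1.35). miR-326 had 504 reads (39.4 CPM) in HT29 spheres and 855 reads (147 CPM) in HT29 parental cells, with a log2 ratio of -1.35 (interval -1.51 to -1.19). In HCT15 the miR-326 ratio was 0.61 (interval 0.08 to 1.18), on 54 reads in spheres and 61 in parental cells, so the sign was not the same in the 2 lines.

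Some of the wider list differed far more between the lines than between spheres and parental cells of a line. These line differences, like those of the members, set deposited counts against reads recovered from RPKM. The parental media of the lines also differed, and the part of read counting was not tested. miR-338-3p, a miRNA of oligodendrocytes and neurons, was at 314 CPM in HT29 spheres and listed at 0 in HCT15 spheres. In plain CPM its HT29 level was 243-fold the 3-read floor of the HCT15 sphere library. On TMM factors the interval of the log2 difference began at 7.58. In parental cells miR-338-3p was at 303 CPM in HT29 against 1.95 CPM in HCT15. Its opposite arm miR-338-5p was at 329 CPM in HT29 spheres against 0.863 CPM in HCT15 spheres, and at 375 CPM in HT29 parental cells against 0.628 CPM in HCT15 parental cells. Both arms of this hairpin thus showed a large gap. For miR-7 the gap was far larger on miR-7-5p than on miR-7-1-3p, whose log2 differences were -0.26 in spheres and 1.47 in parental cells. miR-125b-5p went the other way, at 10.2 CPM in HT29 spheres against 330.5 CPM in HCT15 spheres and 7.92 CPM in HT29 parental cells against 272 CPM in HCT15 parental cells. miR-181c-5p was at 63.8 CPM in HT29 spheres against 495 CPM in HCT15 spheres, and at 74.7 CPM in HT29 parental cells against 411 CPM in HCT15 parental cells. On TMM factors miR-125b-5p and miR-181c-5p were higher in the spheres of both lines. The log2 ratios of miR-125b-5p were 0.89 in HT29 (interval 0.42 to 1.43) and 0.63 in HCT15 (interval 0.49 to 0.77). Those of miR-181c-5p were 0.32 (interval 0.15 to 0.50) and 0.61 (interval 0.50 to 0.73). In HT29, miR-338-3p had 0.60 and miR-338-5p 0.36. In plain CPM miR-181c-5p and miR-338-5p were lower in HT29 spheres.

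Among the rest of the wider list that reached 10 CPM, miR-149-5p had log2 ratios of 0.54 in HT29 and -0.44 in HCT15, and miR-330-3p of -0.09 and -0.44. miR-153 was at 8.20 CPM in HCT15 spheres and 10.4 CPM in HCT15 parental cells, and below 3 CPM in HT29. miR-219-1-3p was at 3.45 CPM in HCT15 spheres against 14.4 CPM in HCT15 parental cells, on 8 and 46 reads (log2 ratio -1.55, interval -3.01 to -0.62).

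**Figure D4:**
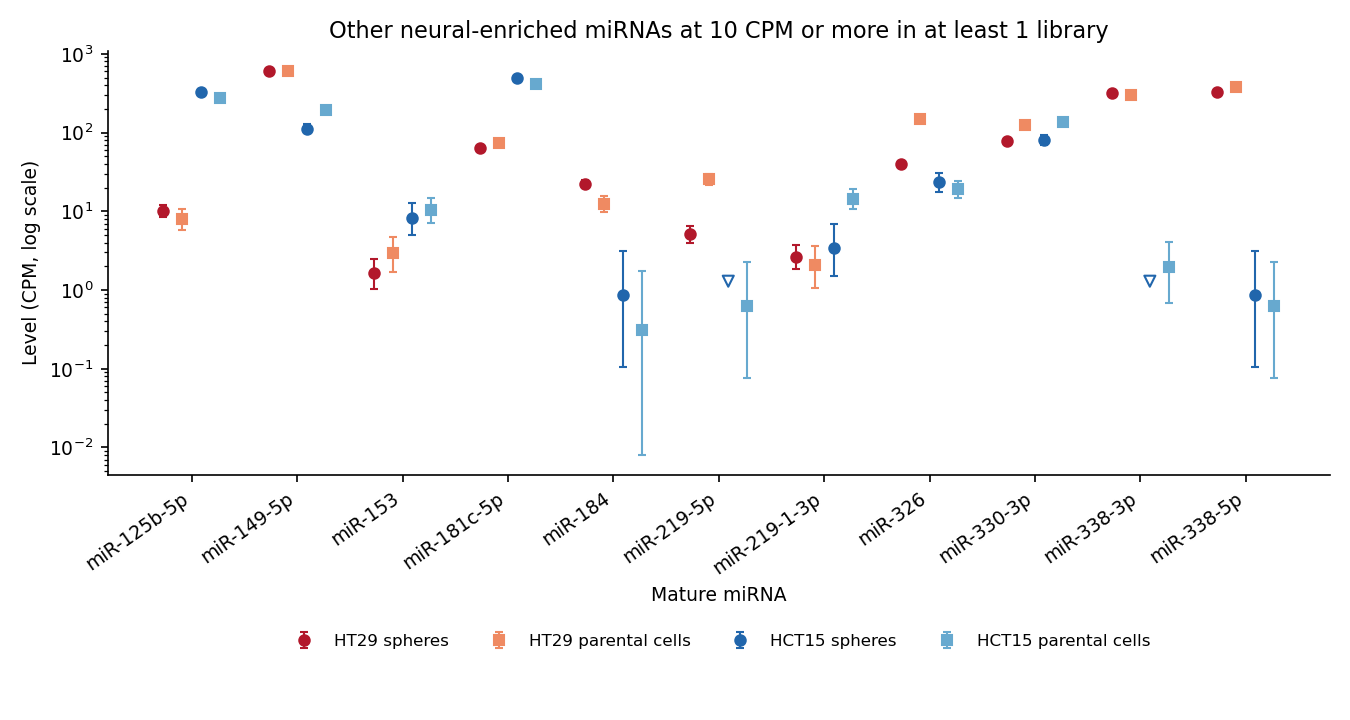
Level (CPM, log axis) of the 11 miRNAs of the wider neural list that reached 10 CPM in at least 1 of the 4 libraries, with 95% Poisson intervals and open triangles at the 3-read floor where a library listed 0. miR-338-3p and miR-338-5p are at 303 CPM or more in both HT29 libraries and below 2 CPM in HCT15, and miR-125b-5p is the reverse, at 10.2 CPM or less in HT29.

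The miRNAs whose profile over the 4 libraries came closest to a member's, by the Euclidean distance of centred log2 levels among the 377 tested, gave a scale for these patterns. For miR-128 they were miR-4485 (distance 0.31), miR-93-3p (0.40) and miR-365b-3p (0.50). For miR-9-5p they were miR-30e-5p (0.40), miR-148b-5p (0.46) and miR-183-5p (0.49), and for miR-132-3p miR-125a-3p (0.36), miR-501-3p (0.51) and miR-505-3p (0.51). For miR-7-5p the nearest lay farther off: miR-590-5p (0.87), the intestinal miR-194-5p (0.99) and miR-598 (1.03). The distance grows with the size of a profile's differences, which were largest for miR-7-5p among these members. It alone thus does not show a less shared pattern. miR-590-5p was at 113 CPM in HT29 spheres and 552 CPM in HT29 parental cells, against 0 and 0.942 CPM in HCT15 spheres and parental cells. The arms of MIR590 also differed in balance between the lines, by 6.95 in spheres and 6.19 in parental cells, ranking 7th and 13th of the 135 hairpins. MIR194-2 ranked 108th and 47th. The part of read counting in these profiles was not tested.

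**Figure D5:**
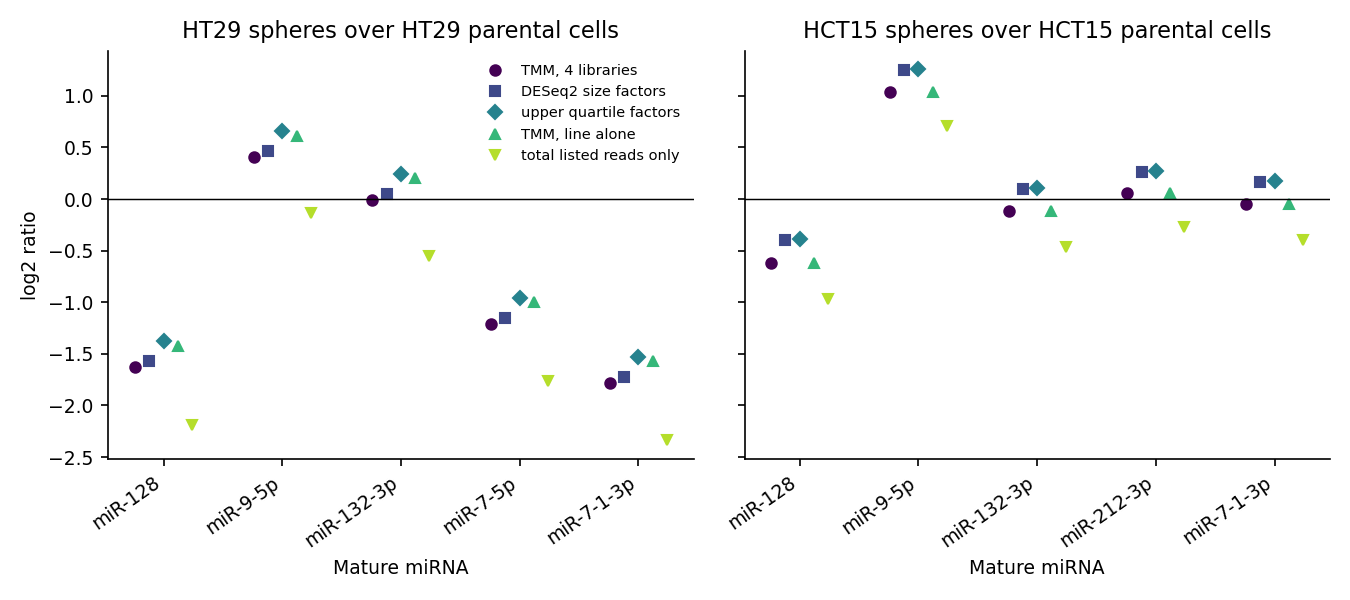
log2 ratio of spheres to parental cells (y axis) of the measured neural miRNAs and of miR-7-1-3p, in HT29 (left) and HCT15 (right), under 5 ways of scaling the libraries. In HCT15, TMM of the line alone gives the same ratios as TMM over all libraries. miR-128 is below 0 under each in both lines and miR-7-5p under each in HT29, whereas miR-132-3p crosses 0 in both lines, miR-9-5p in HT29, and miR-212-3p and miR-7-1-3p in HCT15.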

How the data were processed

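Per the labels' protocols, each library used 1 µg of RNA and a TruSeq kit for small RNA. For HT29 the authors deposited unnormalized counts for mature names of miRBase release 19. For HCT15 they deposited RPKM, according to the headers. The submitters' processing notes name hg19. The aligner, the trimming and the handling of multiply matching reads are not stated in the labels or headers.

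In the HCT15 files 1 read was worth 0.263 (spheres) and 0.162 (parental cells) at a mature length of 22 bases, and slightly more at greater lengths, in proportion to length over length plus 9. This pattern was found after the files were seen. In spheres the value of 1 read was the commonest 22-base value divided by 2, which made 73.4% of low values whole, against 38.9% undivided. In parental cells it was the commonest 22-base value itself. Dividing by the length-dependent value of 1 read made 75.1% of 394 and 71.6% of 707 values under 1000 reads whole within 0.01. In each library 9 values became whole only with a length 1 base off RefSeq's. With the same value of 1 read at all lengths, 42.6% and 38.9% were whole. Of random values, to which nothing was fitted, 2.03% were whole. All member values became whole, with a length of 23 for miR-7-5p, 1 base under RefSeq's. Other values stay approximate.

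CPM used all listed reads of a library. TMM factors came from the 1882 names in all 4 files. limma 3.58.1 in R 4.3.3 (residual 1 and median prior 2.74 degrees of freedom, tested on simulated data) was used as designed for mixed units, with edgeR 4.0.16 and DESeq2 1.42.0 as alternatives. Within a line, ratios carry exact conditional binomial intervals (scipy 1.17.1 in Python 3.11.15). Cell line pairs the cultures. Members, all lists and rules were chosen with earlier results of these data known. Named were all members, the opposite arms, the wider list at 10 CPM in 1 library, and the 3 nearest profiles of each member tested. The arm comparison over 135 hairpins was added after values were seen. Names were matched as written. miR-128 is RefSeq's miR-128-3p.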

Additional observations from a re-analysis of the deposited data

How the results depend on the processing

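Across both lines the count of 0 called miRNAs changed to 6 without a filter on low values, 3 with limma-voom and 5 with DESeq2, none of them a member. It stayed 0 (0 to 39 at an unadjusted p under 0.05) under the other 10 settings, among them edgeR, other scalings and pseudocounts, and the fit without cell line as a replicate block. Leaving out a line leaves 1 library per culture and no test, and its value is the ratio within the other line. In HT29 the count of members at least 2-fold lower in spheres was 1, not 2, with upper quartile factors or with TMM factors of the line alone, an alternative added after the data were seen. In HCT15 the count at least 2-fold higher was 0, not 1, with total reads, a prior count of 10 or a mean of at least 50 CPM. miR-9-5p in HT29 turned to -0.14 with total reads. The count of members at least 2-fold lower in HT29 than HCT15 spheres was 0, not 1, at a mean of 50 CPM, where miR-132-3p drops out, and that at least 2-fold higher in HT29 parental cells was 2, not 1, with total reads. Total reads in place of TMM shifted log2 ratios of spheres to parental cells by -0.55 in HT29 and -0.35 in HCT15. With it 35.2% of miRNAs in HT29 were at least 2-fold lower and 4.43% at least 2-fold higher. The cause of these changes was not tested. Low read numbers limited the ratios of miR-9-3p, miR-124-3p, miR-218-5p and miR-212-3p in both lines. In HCT15 they also limited those of miR-7-5p and of miR-9-5p, which had 32 reads in spheres and 26 in parental cells.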
